A study of Bos taurus with 18 samples.

Results

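C1R and C1S, CD14 and PGLYRP3, and OLR1 and GPR84 were followed as a named list of complement C1 proteases and of receptors for microbial or lipid ligands, 6 genes of the 36075 in the count table. Each symbol was paired with its Ensembl identifier through the study's own lists of genes changed with rbCAPG. C1R (ENSBTAG00000008612), C1S (ENSBTAG00000004840), CD14 (ENSBTAG00000015032) and PGLYRP3 (ENSBTAG00000021443) came through the epithelial list, and OLR1 (ENSBTAG00000004547) and GPR84 (ENSBTAG00000015592) through the stromal list. A change of these genes with rbCAPG in those cells is therefore not independent of how they were found. All 6 genes passed the filter on low counts, but PGLYRP3 passed only through the protein-treated bEECs and GPR84 only through the protein-treated bESCs, the groups in which each was high.

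RNA was sequenced from 18 samples of a bovine endometrium-on-a-chip, a microfluidic device in which primary bovine endometrial epithelial cells (bEECs) line a chamber under flow and primary bovine endometrial stromal cells (bESCs) lie in a static chamber across a porous membrane. The medium flowing past the bEECs carried PBS as vehicle control (VC) or, at 1 µg/mL for 24 h, a recombinant bovine protein that the conceptus secretes, either CAPG (rbCAPG) or PDI (rbPDI). Each of the 6 groups had n = 3 samples, 1 from each of 3 abattoir uterine tracts in the late-luteal stage, and each of the 9 devices held both cell types of 1 animal. The bESCs met the added protein only across the membrane and the bEECs, the cells were primary cultures whose age and parity of origin are not given in the sources used here, and no group had a genetic change.

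C1R and C1S are serine proteases of the complement C1 complex. When C1q binds an antibody or a microbial surface, C1r activates itself and then C1s, which cleaves the next complement components and starts the classical pathway. CD14 passes bacterial lipopolysaccharide to the receptor TLR4, PGLYRP3 binds bacterial peptidoglycan, OLR1 (also called LOX-1) is a scavenger receptor for oxidised low-density lipoprotein, and GPR84 is a receptor for medium-chain fatty acids known from activated myeloid cells. In the endometrium such genes belong to the innate defence of a tissue whose lumen can meet bacteria.

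Total counts ran from 10072851 in rbPDI-treated bESCs of replicate 1 to 44253149 in rbCAPG-treated bESCs of replicate 2. Levels below are in CPM, counts scaled to the size of each library after its TMM factor, and they were compared between samples and never between genes. The labelled cell types were checked against 8 of 28 listed marker genes, the ones with an identifier, which is 28.6% of the list, so the check is partial. All 8 came through the study's lists of genes changed with rbCAPG. The epithelial markers MUC1 and OCLN summed to 325 to 883 CPM in bEECs and 0.351 to 3.98 CPM in bESCs, and the stromal markers HAND2, ZEB1 and VCAN summed to 119 to 306 CPM in bESCs and 3.38 to 25.7 CPM in bEECs. In bulk samples such as these, fewer cells of a type and less RNA per cell cannot be told apart.

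With VC alone, C1R, C1S and OLR1 were far higher in the stromal cells, PGLYRP3 was found in bEECs, CD14 was present in both cell types at levels that overlapped, and GPR84 was close to the limit of detection. C1R was at 0.242, 0.768 and 0.269 CPM in the bEECs of replicates 1, 2 and 3, and at 103, 231 and 171 CPM in the bESCs of the same devices. C1S was at 0.393, 0.704 and 0.299 CPM in bEECs and at 204, 481 and 307 CPM in bESCs. For both proteases, every bESC sample was above every bEEC sample, and replicate 2 was the highest in either cell type. The difference between bEECs and bESCs was -8.63 ± 0.57 (SE) on the log2 scale for C1R and -9.47 ± 0.55 for C1S, with edgeR adjusted p-values of 8.89e-09 and 3.01e-09.

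OLR1 was at 1.87, 1.28 and 0.718 CPM in the VC bEECs and at 575, 184 and 259 CPM in the VC bESCs. It was lower in bEECs by a log2 difference of -8.03 ± 0.63 (edgeR adjusted p = 4.92e-08), and in both cell types replicate 1 was the highest. PGLYRP3 had 4, 15 and 5 counts in bEECs and 1, 0 and 0 counts in bESCs. Its mean level in bEECs was 2.91 times the mean bESC floor, set at 3 counts in each library, and replicate 2 carried most of that mean. In replicate 1 the bEEC level of 0.121 CPM was below the bESC floor of 0.132 CPM. The edgeR adjusted p of PGLYRP3 was 0.00398, in a test that it entered only through the protein-treated bEECs. CD14, by contrast, was at 8.7, 6.82 and 5.8 CPM in bEECs and at 4.8, 18.3 and 4.35 CPM in bESCs, so the groups overlapped and 1 animal carried most of the stromal spread. Its log2 difference of -0.37 ± 0.50 did not pass (edgeR adjusted p = 0.559) and changed sign to 0.61 without the VC bESCs of replicate 2. GPR84 had 0, 0 and 2 counts in bEECs and 6, 26 and 2 counts in bESCs. The groups overlapped, and GPR84 did not pass in the fit without the animals as a block (edgeR adjusted p = 0.0506) but did with them (edgeR adjusted p = 0.0254, beside 19.8% of all tested genes called lower in bEECs in that fit). Of the 6 genes, 4 were called between the cell types, 3 lower and 1 higher in bEECs, where 38.5% of the 17931 genes tested were called in either direction, 18.9% as lower in bEECs and 19.6% as higher. The 1 higher was PGLYRP3, which had passed the filter on low counts through the protein-treated samples of that cell type.

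**Figure D1:**
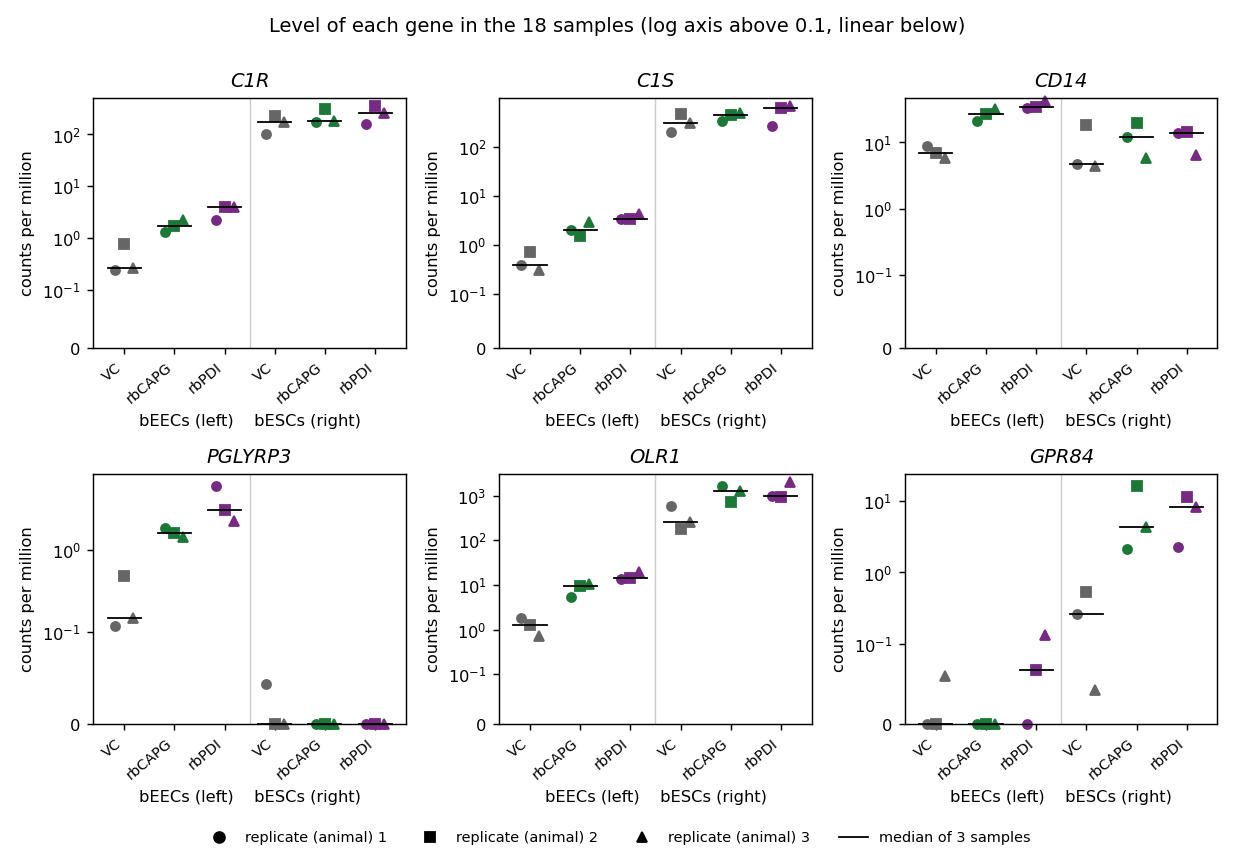
Level (CPM) of the 6 genes in the 18 samples, by cell type and treatment, on an axis that is logarithmic above 0.1 and linear below it; each symbol is 1 sample, its shape gives the animal, and the bar is the median of 3 samples. C1R, C1S and OLR1 sit far higher in bESCs in every treatment, and in bEECs the samples given rbCAPG or rbPDI lie above the VC samples for C1R, C1S, CD14, PGLYRP3 and OLR1.

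The next question was whether rbCAPG changed these genes in the bEECs that it flowed past. C1S and OLR1 rose, and C1R, CD14 and PGLYRP3 were higher in all 3 samples without passing the test. C1S was at 1.98, 1.49 and 2.95 CPM and OLR1 at 5.37, 9.54 and 10.5 CPM with rbCAPG, in both cases with every treated sample above every VC sample. The log2 fold change was 2.20 ± 0.45 for C1S (edgeR adjusted p = 0.0349) and 2.71 ± 0.51 for OLR1 (edgeR adjusted p = 0.0171). Within animals, the rbCAPG level was 2.12 to 9.86 times the VC level for C1S and 2.87 to 14.6 times for OLR1.

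C1R, the partner protease, was at 1.32, 1.76 and 2.26 CPM with rbCAPG, and its log2 fold change was 2.07 ± 0.48 (edgeR adjusted p = 0.0796). CD14 was at 21.4, 27.0 and 32.5 CPM, with a log2 fold change of 1.92 ± 0.51 (edgeR adjusted p = 0.146). PGLYRP3 had 45, 54 and 48 counts, at 1.86, 1.61 and 1.43 CPM, and a log2 fold change of 2.70 ± 0.66 (edgeR adjusted p = 0.13). It entered this test only through the protein-treated bEECs. For each of these 3 genes the treated and VC samples did not overlap, and the level was above VC in 3 of 3 animals, by 2.29 to 8.41 times for C1R, 2.46 to 5.60 times for CD14 and 3.35 to 15.4 times for PGLYRP3. GPR84 had 0 counts in all 3 rbCAPG bEEC samples, and since 3 counts were 0.0893 to 0.124 CPM there, no change of it could be measured.

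Of the 6 genes, 2 were called higher with rbCAPG, beside 0.513% of all tested genes, and 5 were higher without overlap, beside 8.72% of all tested genes. When the 3 animals were fitted as a block within cell type, as the shared origin of same-numbered samples asks, 5 of the 6 were called, beside 2.04% of all genes, with edgeR adjusted p-values of 0.00211 for C1R, 0.00582 for C1S, 0.00241 for CD14, 0.0326 for PGLYRP3 and 0.00601 for OLR1. DESeq2 without the block also called 5, beside 1.49%. In the edgeR fit without the block, each of the 6 libraries compared took at least 1 of these calls with it when it was left out. C1S was lost without VC replicate 1 or 3 or rbCAPG replicate 1 or 3 (edgeR adjusted p = 0.0671 to 0.243), and OLR1 without VC replicate 2 or 3 or rbCAPG replicate 2 or 3 (edgeR adjusted p = 0.0581 to 0.159). Without VC replicate 2, C1R was called in turn (edgeR adjusted p = 0.0251). C1R, C1S, CD14 and PGLYRP3 were found through a list made from this same comparison of these samples. For them the shares above are a background and not an independent comparison.

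With rbPDI in bEECs, all of the genes that could be measured there rose: the proteases C1R and C1S, the bacterial recognition genes CD14 and PGLYRP3, and the scavenger receptor OLR1. This comparison used the same VC samples as the one with rbCAPG. C1R was at 2.26, 3.96 and 4.08 CPM and C1S at 3.37, 3.35 and 4.3 CPM. Both were above all VC samples, with log2 fold changes of 3.02 ± 0.48 for C1R (edgeR adjusted p = 0.00304) and 2.98 ± 0.45 for C1S (edgeR adjusted p = 0.00171). Within animals this was 5.15 to 15.2 times the VC level for C1R and 4.75 to 14.4 times for C1S.

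CD14 was at 32.9, 34.3 and 41.8 CPM with rbPDI, 3.78 to 7.20 times the VC level of the same animal, and its log2 fold change was 2.35 ± 0.52 (edgeR adjusted p = 0.0421). PGLYRP3 had 139, 89 and 84 counts, at 5.92, 3.04 and 2.25 CPM, with a log2 fold change of 3.89 ± 0.67 (edgeR adjusted p = 0.0152). With 4, 15 and 5 counts in the VC bEECs, it entered this test only through the protein-treated bEECs, so its call is not independent of the filter. Replicate 1, which had the fewest PGLYRP3 counts with VC, had the most with rbPDI, so the ratio within animals ran from 6.33 to 49.0. OLR1 was at 13.5, 14.1 and 19.9 CPM, 7.23 to 27.7 times the VC level of the same animal, with a log2 fold change of 3.62 ± 0.52 (edgeR adjusted p = 0.00114). GPR84 stayed near 0, with 0, 2 and 5 counts. Here 5 of the 6 genes were called higher, beside 0.77% of all tested genes, and 5 were higher without overlap, beside 8.06%. The list through which C1R, C1S, CD14 and PGLYRP3 were found was made against the same VC bEEC samples, so low VC values may have been selected for, and these shares are a background and not an independent comparison for them.

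C1R, C1S and OLR1 were called in each of the 13 other settings of the rbPDI comparison in bEECs, with edgeR or DESeq2 adjusted p-values up to 0.0367, 0.0241 and 0.0158. CD14 was lost when any of the 6 libraries was left out (edgeR adjusted p = 0.0728 to 0.237), and PGLYRP3 when VC replicate 1, VC replicate 3 or rbPDI replicate 1 was left out (edgeR adjusted p = 0.0628 to 0.122).

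**Figure D2:**
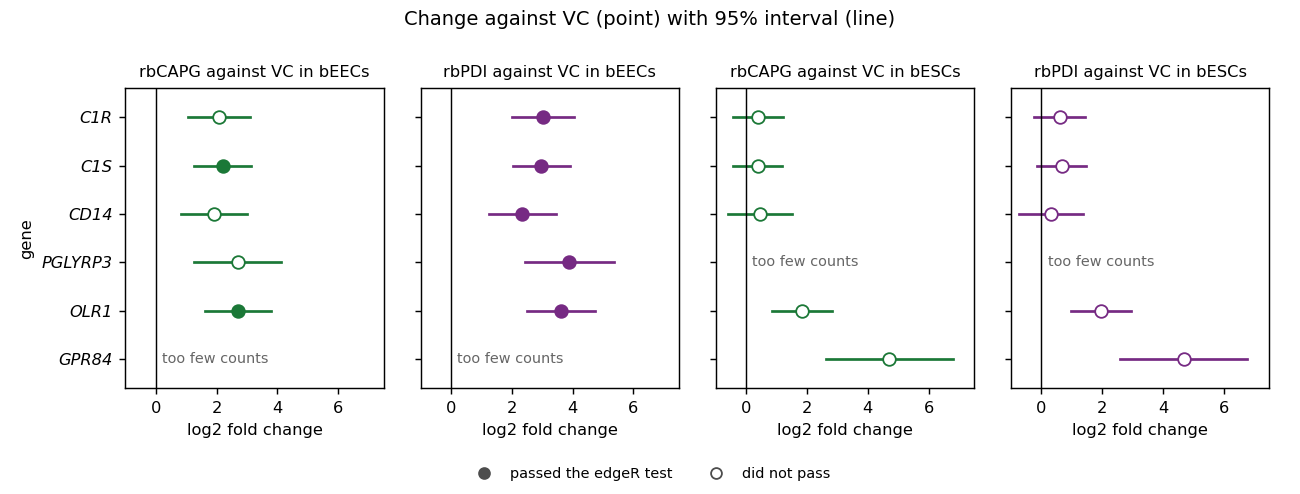
Log2 fold change of each gene against VC (points) with its 95% confidence interval from edgeR (lines), for rbCAPG and rbPDI in bEECs and in bESCs; filled points passed the test without a block for the animals. In bEECs 5 genes have intervals above 0 with either protein, and in bESCs only OLR1 and GPR84 do.

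In bESCs, which lay across the membrane from the flow, OLR1 and GPR84 were the genes that stood above VC, and the C1 proteases and CD14 overlapped with it. OLR1 was at 1619, 708 and 1292 CPM with rbCAPG and at 961, 955 and 2039 CPM with rbPDI. All 6 of these samples were above the highest VC sample, and the level was 2.82 to 4.99 times VC of the same animal with rbCAPG and 1.67 to 7.87 times with rbPDI. The log2 fold changes were 1.83 ± 0.47 with rbCAPG (edgeR adjusted p = 0.443) and 1.96 ± 0.47 with rbPDI (edgeR adjusted p = 0.153), and neither passed. With the animals as a block the edgeR adjusted p-value was 0.0767 for rbCAPG and 0.029 for rbPDI, the latter called.

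GPR84, at 0.264, 0.536 and 0.0428 CPM in the VC bESCs, was at 2.13, 16.0 and 4.29 CPM with rbCAPG and at 2.26, 11.3 and 8.21 CPM with rbPDI. In counts this was 6, 26 and 2 with VC, 78, 862 and 186 with rbCAPG, and 26, 523 and 355 with rbPDI. Replicate 2 had the most GPR84 counts in all 3 treatments, and replicate 1 gave the smallest ratio to VC with either protein, 8.07 times with rbCAPG and 8.55 times with rbPDI. In replicate 3 VC held only 2 counts, too few for a ratio. The log2 fold changes of 4.70 ± 0.98 with rbCAPG (edgeR adjusted p = 0.163) and 4.68 ± 0.98 with rbPDI (edgeR adjusted p = 0.0894) did not pass. With the block they were called (edgeR adjusted p = 0.00647 and 0.00316), as they were by DESeq2 (adjusted p = 0.0129 and 0.00804). The rbPDI bESC library of replicate 1 was the shallowest of all, and without it the GPR84 log2 fold change with rbPDI was 5.08 (edgeR adjusted p = 0.0676). In the same bESC samples the epithelial markers MUC1 and OCLN summed to 0.351 to 0.578 CPM with VC, 1.36 to 2.46 CPM with rbCAPG and 1.304 to 3.98 CPM with rbPDI. OCLN, which came through the study's stromal list of genes changed with rbCAPG, was called with rbPDI (log2 fold change 2.82, edgeR adjusted p = 0.0402). MUC1 did not pass with rbPDI without the block (edgeR adjusted p = 0.0713) but was called with it (edgeR adjusted p = 0.0334). The part of these 2 markers in the OLR1 and GPR84 results was not tested.

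C1R was at 177, 303 and 181 CPM with rbCAPG and at 156, 347 and 265 CPM with rbPDI in bESCs. C1S was at 345, 444 and 496 CPM with rbCAPG and at 265, 628 and 673 CPM with rbPDI. Both proteases overlapped with VC, and the 95% intervals of their log2 fold changes reached from -0.45 to 1.22 and from -0.42 to 1.17 with rbCAPG, and from -0.23 to 1.44 and from -0.14 to 1.46 with rbPDI. Within animals, C1R was higher than VC in 3 of 3 with either protein, by 1.06 to 1.72 times with rbCAPG and 1.501 to 1.54 times with rbPDI. C1S was 0.923 to 1.70 times VC with rbCAPG, higher in 2 of 3, and 1.304 to 2.19 times with rbPDI, higher in 3 of 3. With the animals as a block neither passed with either protein (edgeR adjusted p = 0.367 for C1R and 0.474 for C1S with rbPDI, and 1 for both with rbCAPG). CD14 was at 11.9, 20.02 and 5.86 CPM with rbCAPG and at 14.1, 14.3 and 6.36 CPM with rbPDI, and either group overlapped with VC. Within animals CD14 was 1.09 to 2.49 times VC with rbCAPG, higher in 3 of 3, and 0.783 to 2.93 times with rbPDI, higher in 2 of 3. PGLYRP3 had 0 counts in all 6 protein-treated bESC samples, and 3 counts were 0.0557 to 0.261 CPM in them. No gene of the 6 was called without the block in either bESC comparison, beside 0.0948% of all tested genes with rbCAPG and 0.178% with rbPDI in either direction. With rbCAPG, 491 of all tested genes had an unadjusted edgeR p under 0.05, and with rbPDI 951. With the block, 1 of the 6 was called with rbCAPG and 2 with rbPDI, beside 0.468% and 0.987% of all genes called higher, and DESeq2 called 2 in each, OLR1 and GPR84, beside 0.379% and 0.876%. OLR1 and GPR84 were the 2 genes higher without overlap in either comparison, beside 3.02% of all genes with rbCAPG and 4.1% with rbPDI. Both were found through the stromal list, made with rbCAPG against these VC bESCs, so low VC values may have been selected for. GPR84 had also passed the filter on low counts only through the protein-treated bESCs. For these 2 genes the shares are a background and not an independent comparison, with either protein.

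rbPDI and rbCAPG were also compared directly, at the same dose and time. In bEECs, all 3 rbPDI samples were above all 3 rbCAPG samples for C1S, CD14, PGLYRP3 and OLR1, beside 2.14% of all tested genes, while for C1R the lowest rbPDI sample (2.258 CPM) lay just under the highest rbCAPG sample (2.263 CPM). The log2 differences of rbPDI from rbCAPG were 0.94 for C1R (95% interval 0.04 to 1.84), 0.78 for C1S (-0.07 to 1.62), 0.43 for CD14 (-0.61 to 1.47), 1.19 for PGLYRP3 (-0.09 to 2.47) and 0.90 for OLR1 (-0.08 to 1.89). None passed after adjustment by edgeR, by edgeR with the block or by DESeq2, and none of the 17931 genes did. C1R had an unadjusted edgeR p of 0.0407, as 103 of all tested genes had one under 0.05 by edgeR and 174 by DESeq2. In bESCs the differences were 0.13 for OLR1 (95% interval -0.84 to 1.10) and -0.03 for GPR84 (-1.74 to 1.69), intervals that reach past 1 log2 unit in the case of either gene.

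Responses of the cell types to each protein were compared through an interaction term. The change with rbPDI was larger in bEECs than in bESCs by 2.41 ± 0.62 on the log2 scale for C1R (edgeR adjusted p = 0.354) and by 2.32 ± 0.58 for C1S (edgeR adjusted p = 0.32), and neither passed, beside 0.0948% of all tested genes called. With the animals as a block both did, with edgeR adjusted p-values of 0.012 for C1R and 0.0462 for C1S, beside 0.441% of all genes called in either direction, and DESeq2 called both without the block, beside 0.485%. Both genes came through the epithelial rbCAPG list, made against the same VC bEECs, so low VC values may have been selected for there. These shares are therefore a background and not an independent comparison. For CD14 the difference was 2.03 (edgeR adjusted p = 0.725) and for OLR1 it was 1.66 (edgeR adjusted p = 0.933), and neither passed with the block. With rbCAPG the differences were 1.68 for C1R, 1.83 for C1S, 1.47 for CD14 and 0.88 for OLR1, and no gene of the 6 was called by edgeR, with or without the block, or by DESeq2, beside 0.0669%, 0.223% and 0.273% of all tested genes without the block, with it and by DESeq2. Here 613 of all tested genes had an unadjusted edgeR p under 0.05, and 842 by DESeq2.

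Because bESCs held so much more C1R, C1S and OLR1 than bEECs, the level in bEECs was also set against the level in the bESCs of the same device. With VC, bEECs held 0.157% to 0.332% of the bESC level of C1R, 0.0975% to 0.193% of that of C1S and 0.277% to 0.696% of that of OLR1. With rbCAPG the ranges were 0.580% to 1.25% for C1R, 0.336% to 0.594% for C1S and 0.332% to 1.35% for OLR1. With rbPDI they were 1.14% to 1.54% for C1R, 0.533% to 1.27% for C1S and 0.974% to 1.48% for OLR1. For the proteases every device with either protein was above every VC device, while for OLR1 replicate 1 with rbCAPG (0.332%) lay within the VC range.

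The 3 of 9 listed stromal markers with an identifier, HAND2, ZEB1 and VCAN, summed to 3.38 to 6.15 CPM in VC bEECs, 7.52 to 25.7 CPM with rbCAPG and 6.90 to 20.2 CPM with rbPDI, and none of them was at 0. The part of stromal RNA in the higher levels of C1R, C1S and OLR1 was not tested. Without the block none of the 3 was called in bEECs with either protein (edgeR adjusted p = 0.0796 to 0.576). With the block all 3 were called with rbCAPG (edgeR adjusted p = 0.00257 to 0.0342) and ZEB1 with rbPDI (edgeR adjusted p = 0.00158). The epithelial markers in bEECs summed to 325 to 547 CPM with VC, 770 to 825 CPM with rbCAPG and 722 to 883 CPM with rbPDI. MUC1 had log2 fold changes of 1.13 and 1.16 and did not pass without the block (edgeR adjusted p = 0.16 and 0.105). It was called with either protein when the block was fitted (edgeR adjusted p = 0.0444 with rbCAPG and 0.0323 with rbPDI). The log2 fold changes of OCLN were 0.15 and 0.17, and OCLN was not called with or without the block. HAND2, ZEB1, VCAN and MUC1 were read through the study's epithelial list of genes changed with rbCAPG against these VC samples. Their changes in bEECs are therefore not independent of how they were found, and the listed markers without an identifier could not be read.

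**Figure D3:**
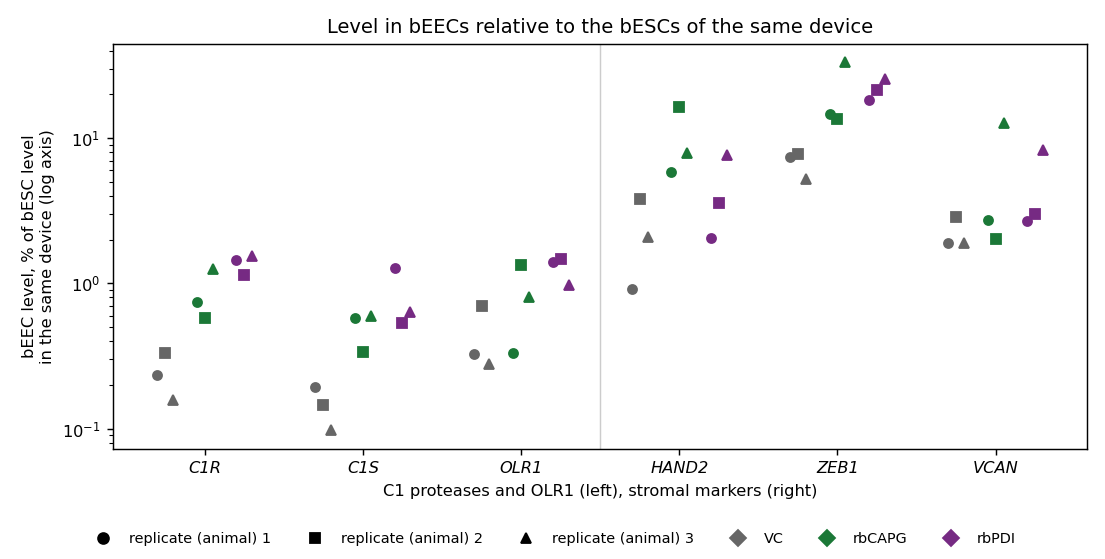
Level in bEECs as a percentage of the level in bESCs of the same device (log axis) for C1R, C1S and OLR1 and for the stromal markers HAND2, ZEB1 and VCAN; each symbol is 1 device, its colour the treatment and its shape the animal. The proteases rise from at most 0.332% with VC to at least 0.336% with rbCAPG and 0.533% with rbPDI, and the markers lie higher in the same device, most of them shifting up as well, with exceptions in replicate 2 (VCAN with rbCAPG, HAND2 with rbPDI).

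A broader reference was the 26 genes whose mean over the 9 bESC samples was at least 100 CPM and whose mean over the 9 bEEC samples was at most 1% of that, a list chosen after values were seen and described without a test. C1R, C1S and OLR1 are 3 of them. Of the other 23, 21 were higher and 2 lower in bEECs with rbCAPG, with a median log2 fold change of 0.69, and 17 were higher and 6 lower with rbPDI, with a median of 0.58. Over all tested genes the medians were 0.02 and -0.01. None of the 23 was called with either protein, and with each protein 1 of them had a log2 fold change at least as large as that of C1R or C1S.

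Within devices, the place of C1R among these 23 genes shifted with treatment. With VC, C1R as a percentage of the bESC level was above 9, 7 and 6 of the 23 in replicates 1, 2 and 3, near the middle or in the lower part. With rbCAPG it was above 10, 16 and 16 of them, and with rbPDI above 19, 22 and 21. C1S was above 6, 0 and 4 of them with VC, 8, 7 and 12 with rbCAPG and 18, 14 and 11 with rbPDI. OLR1 was above 10, 14 and 12 with VC, 3, 23 and 14 with rbCAPG and 19, 23 and 15 with rbPDI, so in replicate 1 it lay lower among them with rbCAPG than with VC. The median of the 23 genes was 0.224% to 0.533% with VC, 0.509% to 0.981% with rbCAPG and 0.469% to 0.745% with rbPDI. The limit of 1% keeps out genes that rose far in bEECs. C1R and C1S themselves were found through a list of genes changed with rbCAPG against these VC bEECs. Their places among the 23 are therefore not independent of how the genes on either side were chosen. Drawn from the VC samples alone, the list held 41 genes, of which the 38 others had medians of 0.79 with rbCAPG and 0.60 with rbPDI. Of the 38, 2 (5.26%) were called with each protein, beside 0.513% and 0.809% of all tested genes in either direction. With each protein, 2 had a log2 fold change at least as large as that of C1R, C1S or OLR1. Low VC bEEC values were selected for in this list, so its medians and calls are not independent of how it was drawn.

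C1R was then read relative to C1S in the same library, where sequencing depth cancels. The log2 ratio of C1R to C1S, with 2 added to each count, was -0.58 to 0.24 in bEECs, with a median of -0.13, and -1.45 to -0.55 in bESCs, with a median of -0.96 (9 samples each). The addition draws ratios of low counts toward 0, most of all in VC bEECs. It widens the gap to bESCs where the bEEC ratio is below 0. Its zero has no meaning between genes of different length, but a difference between samples has. In each of the 9 devices the bEECs had the higher ratio, by 0.21 to 1.27. The counting error of a bEEC ratio, from the counts without the addition, was up to 0.663 (SE) with VC, where counts were 8 to 24, and 0.163 to 0.329 with the proteins. The gap was over 2 times its counting error in 5 devices, 0 of them of replicate 1.

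In bEECs the 3 animals kept the same order of this ratio in every treatment. Replicate 1 gave -0.58 with VC, -0.56 with rbCAPG and -0.56 with rbPDI. Replicate 2 gave 0.12, 0.23 and 0.24, and replicate 3 gave -0.13, -0.37 and -0.07. Replicate 1 was the lowest and replicate 2 the highest with VC, rbCAPG and rbPDI alike, while C1R and C1S themselves were higher with either protein. The counting errors of replicates 1, 2 and 3 were 0.648, 0.426 and 0.663 with VC, 0.329, 0.277 and 0.22 with rbCAPG, and 0.256, 0.198 and 0.163 with rbPDI. The order was thus within counting error with VC, as was that of replicates 1 and 3 with rbCAPG. Only replicates 1 and 2 with rbPDI differed by more than 2 times the counting error of their gap. In bESCs the order changed, with replicate 2 the lowest with VC (-1.06) and the highest with rbCAPG (-0.55).

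**Figure D4:**
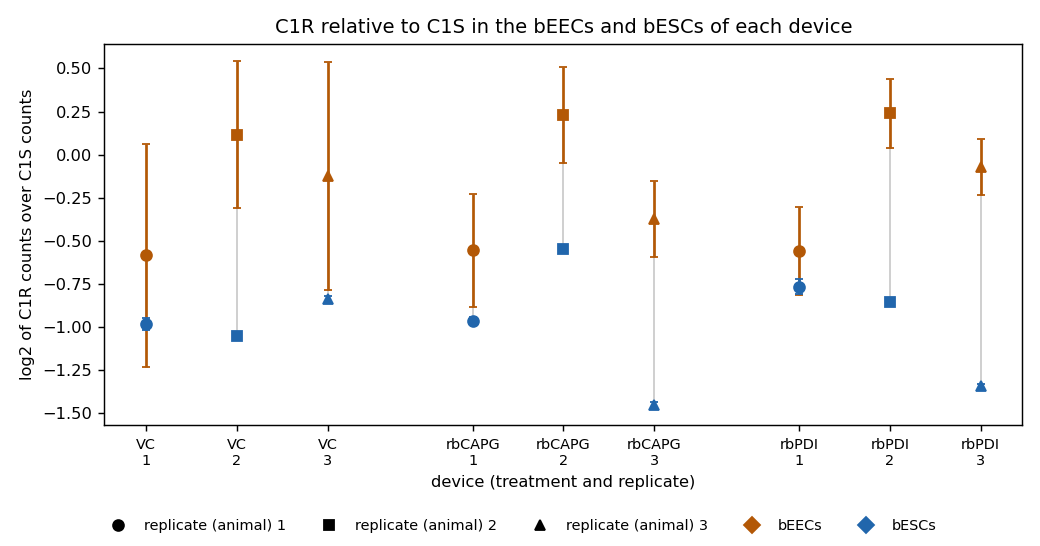
Log2 ratio of C1R to C1S, with 2 added to each count, in the bEECs (orange) and bESCs (blue) of each of the 9 devices, with bars of 1 standard error from counting alone. The bEEC point lies above the bESC point in all 9 devices, by 0.21 to 1.27. Replicate 2 has the highest bEEC ratio in every treatment, but only its gap to replicate 1 with rbPDI exceeds 2 times the counting error.

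In the RefSeq gene table of assembly ARS-UCD2.0, which is not the build of the counts and was used for names only, C1R and C1S are neighbours with 0 protein-coding genes between them. A long non-coding RNA overlaps C1R, and COPZ1, a coat protein subunit gene, overlaps GPR84. No strand option is stated for the counting, and reads matching several genes were divided, so reads of C1R and of GPR84 could not be fully separated from those of their overlapping genes. The deposited value was not whole in 9 of 18 samples for C1R, 15 for C1S, 12 for CD14, 9 for OLR1, 4 for GPR84 and 0 for PGLYRP3.

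CD14 and GPR84 are best known from myeloid cells, and 1 of the 6 listed leukocyte markers, AIF1, a calcium-binding protein of macrophages, had an identifier. AIF1 was at 4.02, 14.2 and 12.7 CPM in VC bEECs, 23.3, 30.6 and 25.9 CPM with rbCAPG and 20.1, 30.3 and 29.7 CPM with rbPDI. In bESCs it had 0 to 3 counts in every library. AIF1 was thus higher in the same bEEC samples as CD14, without passing there (log2 fold changes of 1.37 and 1.38, edgeR adjusted p = 0.178 and 0.13) unless the animals were a block (edgeR adjusted p = 0.0138 and 0.0106), and its part in the CD14 result was not tested. In the bESCs, where GPR84 reached 862 counts, AIF1 stayed at 3 counts or fewer. PTPRC and the other 4 leukocyte markers were not analysed here. The 2 of 5 listed endothelial markers with an identifier, TEK and SELP, summed to 1.53 to 3.75 CPM in VC bEECs, 11.9 to 15.9 CPM with rbCAPG and 5.07 to 37.4 CPM with rbPDI, and to 82.2 to 646 CPM over the bESC samples, where SELP made up nearly all of it. TEK, with 1 to 4 counts in the VC bEECs, was called in bEECs with rbPDI (log2 fold change 3.23, edgeR adjusted p = 0.0442). When the animals were a block, TEK was called in bEECs with rbCAPG as well (edgeR adjusted p = 0.0445). SELP was called there with rbPDI (edgeR adjusted p = 0.0333). The part of these endothelial markers in the results was not tested. AIF1, TEK and SELP all came through the study's epithelial list of genes changed with rbCAPG. Their rise in bEECs is therefore not independent of how they were found.

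For each gene, the 3 genes with the most similar profile over the 9 samples of a cell type were taken from those with a symbol, all of which come from the study's lists of genes changed with rbCAPG. These are descriptions over samples that share animals and treatments. In bEECs, CD14 and OLR1 were closest to each other (Pearson r of log2 CPM 0.993), each followed by NFKB2, a subunit of the transcription factor NF-κB (r = 0.993 with CD14 and 0.981 with OLR1). C1R and C1S were also close in bEECs (r = 0.970), with PCOLCE2 nearest to C1R (r = 0.971) and ADAMTS5 nearest to C1S (r = 0.974), both genes of matrix processing. Among genes with a symbol, PGLYRP3 was nearest to the chemokine genes CCL5 (r = 0.963) and CX3CL1 (r = 0.960). Genes without a symbol lay nearer in several cases. Of 17930 genes, CCL5 ranked 10 and CX3CL1 14 for PGLYRP3, PCOLCE2 3 for C1R and OLR1 2 for CD14. In bESCs the proteases were less alike (r = 0.876), CD14 and OLR1 had an r of -0.06, and GPR84 was nearest to PTGS2 (r = 0.990), the inducible prostaglandin synthase, to the chemokine gene CCL20 (r = 0.989) and to BIRC3 (r = 0.973).

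Beyond the 6 genes, 52 other genes of complement and innate recognition were listed, from C1q and C3 to the Toll-like receptors and scavenger receptors, of which 5 (9.62%) had an identifier, all through the same study lists. C1q, C3, C4 and TLR4 were among those not analysed here. None of the 5 was called with rbCAPG in bEECs without the block, and PLA2R1, a lectin-like receptor of phospholipases, was called with rbPDI (log2 fold change 3.28 ± 0.67, edgeR adjusted p = 0.0254). With the block, all 5 were called with rbCAPG, beside 2.04% of all genes called higher, and 3 with rbPDI (CLEC1A, PLA2R1 and PIK3AP1), beside 2.57%. Since the study's lists were made with rbCAPG against these VC samples, neither count is independent of how the 5 were found. CLEC1A, a C-type lectin, had 0 counts in all VC bEECs and was at a median of 1.36 CPM with rbPDI. With at most 14 counts in any bESC sample, it passed the filter on low counts only through the protein-treated bEECs, so its calls there are not independent of the filter. In bESCs none of the 5 was called with either protein, with or without the block.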

How the data were processed

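RNA-seq libraries of 18 samples in 6 groups were analysed. After Trimmomatic and STAR, the authors assigned read pairs to Ensembl genes of the bovine genome with featureCounts, dividing reads that matched several genes or places, so the deposited values are estimated counts and 23.3% of them were not whole. The cDNA was amplified with a SMART-Seq kit, and no strand option is stated.

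Values were rounded and tested in R 4.3.3 with edgeR 4.0.16 (quasi-likelihood F-test, 1 mean for each of 6 groups over 18 samples, TMM, filterByExpr, 17931 genes, Benjamini-Hochberg over all of them, 12 residual degrees of freedom). A call needed an adjusted p under 0.05 and a log2 fold change beyond 1 in either direction. Replicate numbers stand for 3 animals, per the study's methods, and this pairs the samples. Same-numbered samples deviated together within bEECs (mean r = 0.481, lowest 0.311) and within bESCs (mean r = 0.396, lowest 0.129). Values with the replicate as a block are therefore given where they change a call of the 6 genes. For the other named genes they are given only for the proteins against VC within a cell type. The ratio to a floor set a group mean against the mean of 3 counts in each library. That floor is 6.78e-06% to 2.98e-05% of the totals and covers counting error only, as do the counting errors of ratios. An exact permutation test of 3 against 3 samples cannot go below 0.1, so it was not used. On simulated data for rbCAPG against VC in bEECs (17931 genes, 200 changed), edgeR called 186 genes, of which 178 (89.0% of the changed) were changed, and with the block 181, of which 174 (87.0%) were changed. DESeq2 1.42.0 called 214, of which 183 (91.5%) were changed. The simulated samples shared no animal effect, and the changed genes were drawn from those above 1 CPM in VC bEECs. C1R, C1S and PGLYRP3 lay below that level, so these shares do not describe their recovery. Nor do they show what the block does in paired samples.

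Alternatives were DESeq2, its size factors in edgeR, no filter (29859 genes), a filter of 10 counts in 9 or more samples (15712 genes), unrounded counts, only the samples of the cell type or groups compared, the replicate block, and each library left out. The rule for named genes took all 6 genes in every comparison, listed complement, recognition and marker genes with an identifier, and for each gene the 3 most similar genes with a symbol. The genes and lists were chosen with earlier results of these data known. Identifiers were paired with symbols through 245 entries of the study's lists, 190 with a symbol. The gene table at hand is of another assembly and held 0 of these identifiers, so no coordinates or sequences are given. All 18 columns were used.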

Additional observations from a re-analysis of the deposited data

How the results depend on the processing

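The number of the 6 genes called moved by more than 1.5 times as follows. With rbCAPG in bEECs, 2 were called without a block, 5 with the replicate block and 5 by DESeq2, and 0 to 2 with 1 library left out, 0 of them without VC replicate 3 or rbCAPG replicate 3. With rbPDI in bEECs, 5 were called, and 3 to 4 with 1 library left out. In bESCs, where 0 were called, DESeq2 called 2 with either protein, the replicate block called 1 with rbCAPG and 2 with rbPDI, and omitting the filter called 1 with each (GPR84). For the rbPDI effect in bEECs against bESCs, 0 became 2 with the replicate block and 2 by DESeq2. The block called no other gene of the 6 except GPR84 between the cell types with VC. Fewer samples are the construction of the leave-one-out fits, and otherwise the cause was not tested.

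Directions reversed for values that did not pass, mostly when 1 library was left out. Over those fits, CD14 in bESCs ran from -0.048 (without rbCAPG replicate 2) to 1.46 with rbCAPG and from -0.019 (without VC replicate 3) to 1.301 with rbPDI, and between the cell types with VC from -0.71 to 0.61 (without bESC replicate 2). For rbPDI against rbCAPG in bESCs, GPR84 ran from -0.52 to 1.18, with 0.36 without rbPDI replicate 1 and 0.23 with the replicate block. In the same comparison CD14 ran from -0.50 to 0.36, with 0.17 without rbPDI replicate 3, OLR1 from -0.34 to 0.38, with -0.15 without rbCAPG replicate 2, and C1R from -0.089 (without rbPDI replicate 2) to 0.50. Of the other values for single genes and for the list of genes high in bESCs, 651 kept their direction and side of the threshold, 27 newly passed and 17 no longer did. Under the stricter filter, PGLYRP3 and GPR84 were removed and gave no value. Drawing that list from the VC samples was an alternative chosen after seeing the data. Low counts of C1R, C1S and PGLYRP3 in VC bEECs (4 to 24) limit the precision of their fold changes.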
